A study of Mus musculus with 2 samples.

Results

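Among the cells of mouse fetal liver profiled for messenger RNA and surface proteins together, 80 carried 20 or more UMIs of the complement genes C1qa, C1qb and C1qc and are described here as C1q-expressing fetal liver macrophages (C1q cells). UMIs are molecular identifiers that count single captured RNA molecules. The cells were chosen by their summed C1q UMIs out of 7355 cells that had 300 to 5000 detected genes and at most 9% mitochondrial UMIs, with any antibody counts, and made up 1.09% of them (exact 95% interval 0.863 to 1.35%). The whole matrix held 7863 cells.

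The data were 1 cDNA library and 1 antibody library of the same cells, made by CITE-seq, in which antibodies carrying DNA barcodes are counted alongside the RNA of each droplet. The cells came from livers of e13.5 C57BL/6 embryos without any allele or treatment named, pooled from several embryos before staining, and all 7863 cell barcodes were shared by both libraries. Cells carrying Ter119, an erythroid surface antigen, were pulled out with magnets, and some were then mixed with the remaining cells at a ratio of 1 to 1, so the share of any cell type does not give its share in the liver, and a macrophage with Ter119 on its surface could be removed by the same step. There were no replicates: every interval below is an exact 95% interval for counting error in these libraries, no p-value is given, and cells are not replicates of a liver.

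Macrophages of the fetal liver sit at the centre of erythroblastic islands, where maturing erythroblasts attach to them, and they engulf the nuclei that erythroblasts expel. They also clear old or damaged red cells, break down heme, and store or export the iron that it releases. C1q, the recognition molecule of the classical complement pathway, is assembled from the products of C1qa, C1qb and C1qc, is made largely by tissue macrophages, and marks dying cells and debris for uptake.

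The readout of surface proteins rests on 12-base barcodes. The barcodes of the antibodies on which the account of the C1q cells turns are shown because a signal of one antibody is counted only through these letters (5′ to 3′).
CD11b: catgattggctc
Ter119: gaggcgattgat
CD44: gtctagacttcg
CD71: cgaagaaggagt
CD3e: catcggtgtaca
The barcode of Ter119 differed from that of CD71 at 10 of 12 bases, and from its nearest other barcode, that of the non-specific IgG, at 7 bases. Other pairs were closer: CD71 differed from the IgG at 4 bases and CD3e from CD45R at 5.

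The 3 C1q genes lie side by side on the minus strand of chromosome 4 (GRCm38, the build named mm10): C1qb from 136880126 to 136886200, C1qc from 136889801 to 136892936 and C1qa from 136895916 to 136898844. The start sites used below were 136886200 for C1qb and 136892914 for C1qc, the latter inside the annotated end of the gene. The windows around the start sites of C1qb and C1qc are shown because these genes selected the cells and were counted together in every one of them. Each runs from 250 bases before to 50 bases after the start in the RefSeq annotation of GRCm38.p6, on the minus strand, and the capitals mark GAGGAA, the core letters bound by the PU.1 transcription factor (Spi1), or its reverse complement TTCCTC.
C1qb, chr4:136886151-136886450: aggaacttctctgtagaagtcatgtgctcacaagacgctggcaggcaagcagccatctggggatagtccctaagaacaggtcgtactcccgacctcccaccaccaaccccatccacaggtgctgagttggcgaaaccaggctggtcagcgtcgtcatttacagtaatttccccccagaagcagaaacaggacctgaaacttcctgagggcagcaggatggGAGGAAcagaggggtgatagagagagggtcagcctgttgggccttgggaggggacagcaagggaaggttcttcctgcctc
C1qc, chr4:136892865-136893164: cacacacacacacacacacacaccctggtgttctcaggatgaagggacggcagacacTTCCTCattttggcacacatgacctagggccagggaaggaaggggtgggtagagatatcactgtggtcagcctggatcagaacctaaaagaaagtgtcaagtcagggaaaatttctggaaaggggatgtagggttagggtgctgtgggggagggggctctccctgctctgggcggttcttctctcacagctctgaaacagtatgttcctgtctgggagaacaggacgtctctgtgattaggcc
Of the 6 marker genes of these cells, 5 were matched to such a window (C1qb, C1qc, Marco, Cd5l and Timd4, with C1qa unmatched), and 4 of the 5 held the letters on either strand, at -30 from the start in C1qb, -193 in C1qc, -146 in Marco and -66 in Cd5l. Over all 32851 windows of 300 bases, 28.3% held them. A match describes the letters only and is no evidence of binding.

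The C1q sum, which chose the cells, ran from 20 to 172 UMIs per cell with a median of 45.5. C1qc gave 43.5% of the C1q UMIs, C1qb 32.1% and C1qa 24.4%, and each of the 3 genes was counted in all 80 cells. The limit cut through few cells: 4 kept cells had 15 to 19 C1q UMIs and 9 of the chosen cells had 20 to 24. Just outside the limit, a Marco UMI was seen in 2 of the 4 cells, and just inside it in 6 of the 9. Most kept cells, 6925 of 7355, had no C1q UMI and 331 had 1 to 4. The few C1q UMIs of the 7256 other kept cells, those with fewer than 5, were split among the genes much as in the C1q cells, with 41.8% from C1qc, 33.4% from C1qb and 24.7% from C1qa.

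The C1q cells were of ordinary depth. They held 2658 to 18229 UMIs per cell (median 6825.5), 1246 to 4128 genes (median 2379.5) and a median mitochondrial share of 5.25%, and 603455 UMIs in all. One of the 80 was called a doublet by the Scrublet method. They were set beside 3 groups of kept cells with fewer than 5 C1q UMIs. The first was all 7256 other kept cells, mostly erythroid (median 5847 UMIs). The second was the 218 cells with the highest 3% of CD11b antibody counts, called CD11b-high cells (median 6544 UMIs), in which monocyte and granulocyte markers summed to 26879 CPM, megakaryocyte markers to 1272 CPM and globin genes to 34103 CPM on the scale defined below. The third was 173 cells in which Alb, Afp, Apoa1, Apoa2 and Ttr gave 5% or more of the UMIs, called hepatocyte-marker cells (median 13126 UMIs). Levels are given as CPM, the summed UMIs of a gene per 1000000 summed UMIs of a group, which in a 3′ library do not grow with the length of a gene, and a gene is called higher or lower where CPM plus 10 differed by 4-fold or more among genes with at least 50 UMIs in both groups together. Because the cells were chosen on RNA of the same library, these differences describe them and do not test whether they exist.

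The label was checked against the other marker genes, whose values are a description because they were measured in the RNA that chose the cells. Marco, a scavenger receptor that binds bacteria and particles, had 0 to 100 UMIs per C1q cell (median 5.5). Pooled, Marco stood at 1495 CPM (1399 to 1596) in the C1q cells, 4.88 CPM in CD11b-high cells and 2.21 CPM in the other kept cells. Cd5l, a secreted protein of tissue macrophages, had 0 to 71 UMIs per cell (median 5) and stood at 1119 CPM (1036 to 1206), against 9.15 CPM in CD11b-high cells. Timd4, a receptor for the phosphatidylserine exposed by dying cells, had 0 to 16 UMIs per cell (median 3) and stood at 515 CPM (460 to 576), against 4.27 CPM in CD11b-high cells. A Marco UMI was found in 56 of 80 C1q cells, a Cd5l UMI in 58 and a Timd4 UMI in 68. Among the deeper hepatocyte-marker cells, which should lack these genes, the numbers were 5, 0 and 2 of 173.

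General macrophage genes were likewise higher. Of 13 listed macrophage identity genes, 11 had enough UMIs against CD11b-high cells, and 10 were higher and 0 lower, with a median log2 difference of 2.75. Genes such as Mertk reached the minimum of UMIs through the C1q cells alone, so this count is no test of the label. In the gene lists below, too, some genes reached the minimum through 1 group alone, so those counts are no tests either. Over all 5357 genes compared with CD11b-high cells, 136 (2.54%) were higher and 111 (2.07%) lower, with a median of -0.09. Which direction held more genes depended on the settings: 367 were higher and 387 lower at 2-fold, 61 and 63 with every cell thinned to 2000 UMIs, and the lower genes numbered 206 with a limit of 50 C1q UMIs and 187 with 1 CPM added in place of 10. Adgre1, which encodes the F4/80 antigen, stood at 481 CPM (427 to 539) against 18.9 CPM. Csf1r, the receptor through which macrophages receive their survival signal, stood at 436 CPM (385 to 492) against 53.1 CPM, and had a UMI in 74 of 80 cells. Mertk, a receptor for the uptake of dying cells, stood at 91.1 CPM against 3.66 CPM. The gene of the list that stayed within the limit was Lyz2, lysozyme, at 2469 CPM against 4039 CPM in the CD11b-high cells. Cd163, the hemoglobin-haptoglobin receptor, had 0 UMIs in the C1q cells, which allows up to 6.11 CPM, and Siglec1, the sialic acid receptor CD169, had 3.

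Against the other kept cells, 399 of 11251 genes (3.55%) were higher and 92 (0.818%) lower, and all 11 macrophage identity genes with enough UMIs were higher. The numbers were 1222 and 641 at 2-fold and 889 and 603 with 1 CPM added in place of 10, and the lower genes numbered 177 with a limit of 50 C1q UMIs, 175 with every cell thinned and 143 in the C1q cells with a globin share at or below their median. Against hepatocyte-marker cells, 321 of 5556 genes (5.78%) were higher and 385 (6.93%) lower. With a mitochondrial limit of 5% on all cells these numbers were 172 and 68, with hepatocyte-marker cells set at 10% or more 328 and 209, and with genes of at least 10 UMIs 490 and 385, so which direction held more genes depended on these settings. The genes that stood farthest above CD11b-high cells after the C1q genes and the other markers were Fcna, Slc40a1, Hmox1, Igf1, Ccl24, Lgmn, Il18bp and Nr1h3. They included a lectin of the complement system, iron and heme genes, secreted factors, a lysosomal protease and a sterol receptor, which are taken up below by role. Those farthest below were the neutrophil granule and calprotectin genes Camp, S100a8, Ngp and S100a9. The most abundant RNA of the C1q cells was Tmsb4x, the actin-binding thymosin beta 4, at 36745 CPM (36263 to 37232) against 16486 CPM in CD11b-high cells.

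The antibodies, which the choice did not use, gave a surface profile with a high CD11b and a high CD44 signal. CD11b, the integrin subunit of the complement receptor CR3, was counted 33 to 1726 times per C1q cell, with a median of 203, against a median of 6 in the other kept cells and 13 in hepatocyte-marker cells. Of the 80 cells, 92.5% (84.4 to 97.2%) lay above the 95th percentile of the other kept cells, which was 64 counts. CD44, the hyaluronan receptor, was counted 312 to 6825 times (median 1395.5), 2.66 times the median of 525 in CD11b-high cells. The lowest C1q cell for CD44 lay above the median of the other kept cells, 126. The RNA of the CD11b gene was nearly absent from the library, with 3 Itgam UMIs in all C1q cells and 5 in all CD11b-high cells. Cd44 RNA was at 240 CPM (203 to 283) in C1q cells and 73.2 CPM in CD11b-high cells.

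Ter119 and CD71, the 2 antigens by which erythroid cells are staged, were also counted on the C1q cells. Ter119 ran from 12 to 390 counts per cell with a median of 80.5, against a median of 9 in both CD11b-high and hepatocyte-marker cells and 22 in the other kept cells, which included late erythroblasts. No C1q cell was at 0, and their quartiles, 37.75 and 132 counts, lay above those of CD11b-high cells, 5 and 20 counts, although the full ranges overlapped. Only 11.25% of them (5.28 to 20.3%) exceeded the 95th percentile of the other kept cells, 191 counts. The median Ter119 share of a cell's antibody counts was 3.38% in C1q cells and 3.52% in hepatocyte-marker cells. It was 0.684% in CD11b-high cells and 1.81% in the other kept cells. CD71, the transferrin receptor, ran from 24 to 3480 counts (median 318.5), 5.22 times the median of 61 in CD11b-high cells and below the median of 509 in the other kept cells. Its RNA, Tfrc, was at 103 CPM (78.8 to 132) in C1q cells, 56.1 CPM in CD11b-high cells and 182 CPM in the other kept cells.

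**Figure D1:**
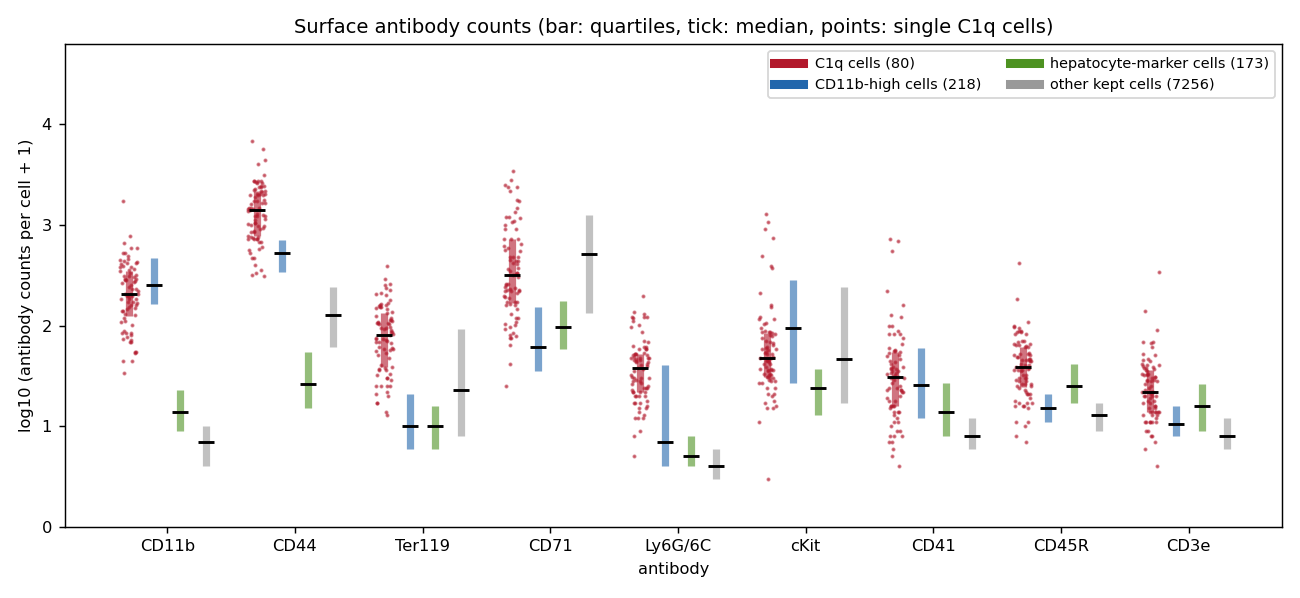
Antibody counts per cell, as log10 of counts plus 1, for 9 antibodies in the C1q cells (80), CD11b-high cells (218), hepatocyte-marker cells (173) and other kept cells (7256). Thick bars span the quartiles, black ticks mark medians and points are single C1q cells. The medians of the C1q cells lie above those of the hepatocyte-marker cells for every antibody drawn, and above those of CD11b-high cells for Ter119 (median 80.5 against 9) and CD44 (1395.5 against 525). All antibodies together had medians of 2458 counts in C1q cells and 265 in hepatocyte-marker cells. As median shares of a cell's antibody counts, C1q cells lie above hepatocyte-marker cells for CD11b and CD44 and below them for the other antibodies drawn.

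Antibodies against antigens of other blood lineages were also counted more often. Ly6G/6C had a median of 36.5 counts in the C1q cells and 6 in CD11b-high cells, while Ly6g and Ly6c2 RNA were both at 0 UMIs in the C1q cells. CD3e, a T cell antigen, had a median of 21 counts against 9.5, with Cd3e RNA at 0 UMIs, and CD45R, a B cell antigen, had a median of 38 against 14. Ptprc, the gene of CD45R and of the other CD45 forms, stood at 84.5 CPM against 79.3 CPM in CD11b-high cells, and was higher than in the other kept cells, at 8.66 CPM. The non-specific IgG was counted in 6.94% of hepatocyte-marker cells and 3.27% of the other kept cells. It was counted in 14 of 80 C1q cells and 36 of 218 CD11b-high cells, 17.5% and 16.5%, and at most 2 times in a C1q cell. cKit, the stem cell factor receptor, went the other way, with a median of 47 against 94.5. All antibodies together had a median of 2458 counts per C1q cell against 1413 in CD11b-high cells, a ratio of 1.74, which is smaller than the ratio of 8.94 for Ter119. Against hepatocyte-marker cells, with a median of 265 counts, the ratio was 9.28 for all antibodies and 8.94 for Ter119, so Ter119 did not exceed the total there. Across the 80 C1q cells Ter119 counts followed CD3e counts (Spearman rho 0.625), CD45R (0.515) and CD44 (0.422) more closely than CD71 counts (0.185), all from 1 library in which the total antibody count followed the UMI count (0.549). The part of nonspecific binding in the Ter119 and CD71 counts was not tested. As a share of a cell's own antibody counts, a scale on which the high CD44 counts lower all the others, no C1q cell exceeded the 95th percentile of the other kept cells for Ter119 or CD71, and 55.0% did for CD11b.

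The Ter119 counts were not accompanied by erythroid RNA in most C1q cells. Globin genes gave a median of 1.01% of the UMIs of a C1q cell, against 0.903% in CD11b-high cells and 0.798% in hepatocyte-marker cells, cell types that should not make globin, and 3.0% in the other kept cells. When the C1q cells were ordered by Ter119 and split into sets of 26, 27 and 27, with median counts of 29, 80 and 159, the median globin share was 1.03%, 1.03% and 0.941%. The pooled share was 1.23%, 1.19% and 3.81%, and erythroid genes other than globin stood at 886, 853 and 2375 CPM. The last set held 5 of the 7 cells with over 5% globin described below, and its other 22 cells had a pooled globin share of 0.959% and 627 CPM of those genes. Over the 80 cells the Spearman rho between Ter119 counts and globin share was -0.06. Above 37.75 Ter119 counts, the first quartile of the C1q cells, 7 of 60 C1q cells had a globin share over 5%, against 22 of 42 CD11b-high cells and 5 of 17 hepatocyte-marker cells. The median globin share of these sets was 0.944%, 7.88% and 1.06%.

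A small subset did carry erythroid RNA. In 7 of the 80 C1q cells (8.75%, 3.59 to 17.2%) globin exceeded 5% of UMIs, with a range of 8.23 to 24.7%. These 7 cells had a median of 148 Ter119 counts and 1206 CD71 counts, and 1 of them was the cell called a doublet. Erythroid genes other than globin stood at 9329 CPM (8523 to 10191) in them and at 692 CPM (624 to 765) in the other 73 C1q cells, close to the 608 CPM of hepatocyte-marker cells. Without the 7 cells the pooled globin share of the C1q cells fell from 2.21% to 0.968%, and with a mitochondrial limit of 5% it was 3.53%, while the median Ter119 count of the remaining 73 cells was 73. The source of the erythroid RNA was not tested. Of the 19 erythroid markers, 0 were higher and 0 lower than in CD11b-high cells among 16 with enough UMIs, and 12 of 19 were lower than in the other kept cells.

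**Figure D2:**
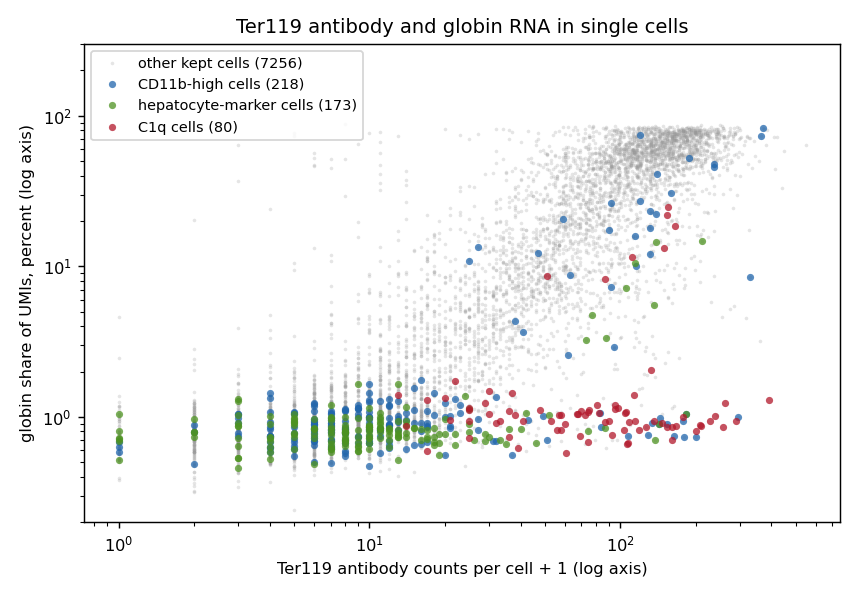
Ter119 antibody counts plus 1 (horizontal, log axis) against the globin share of UMIs in percent (vertical, log axis), 1 point per cell, for the same 4 groups. In the grey other kept cells globin climbs with Ter119, whereas 73 of the 80 C1q cells (red) stay between 0.574 and 2.04% globin across Ter119 counts of 12 to 390, and 7 lie at 8.23 to 24.7%.

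Genes for heme breakdown and for iron storage and export were higher in part. Of 14 listed heme and iron recycling genes with enough UMIs against CD11b-high cells, 8 were higher and 0 lower (median log2 difference 2.25), and the list summed to 50451 CPM against 8731 CPM, most of it from the ferritin storage genes Ftl1 and Fth1. Hmox1, heme oxygenase 1, which opens the heme ring, had 0 to 117 UMIs per C1q cell (median 14.5) and a UMI in 75 of 80 cells. It stood at 3049 CPM (2911 to 3192) against 62.2 CPM in CD11b-high cells, a ratio of 49.0 (40.1 to 60.4), and 7.27 CPM in hepatocyte-marker cells. This ratio depended on the cells taken. On CPM plus 10 the log2 difference was 5.40, against 7.37 with the highest 1% of CD11b counts. It was 7.50 with a mitochondrial limit of 5%, which changed both groups. Blvra, biliverdin reductase, which acts on the next product, stood at 240 CPM against 50.03 CPM, and Blvrb at 630 CPM against 239 CPM, within the limit. Blvrb was more abundant in the other kept cells, at 991 CPM.

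Iron storage and export genes were also higher than in CD11b-high cells. Against the other kept cells, 6 of 18 heme and iron recycling genes were higher (Ftl1, Hmox1, Lrp1, Slc11a1, Slc40a1 and Spic) and 0 lower, so Fth1 and Blvra were within the limit there. The ferritin light chain Ftl1 stood at 28677 CPM (28251 to 29107) and the heavy chain Fth1 at 14521 CPM (14219 to 14829), 5.42 times and 5.51 times the levels of CD11b-high cells. Slc40a1, ferroportin, the only known iron exporter of mammalian cells, had 0 to 47 UMIs per C1q cell (median 11.5) and stood at 1952 CPM (1842 to 2067) against 36.0 CPM, a ratio of 54.2 (41.7 to 71.7). It was counted in 78 of 80 cells, and in 56 of 173 hepatocyte-marker cells at 35.4 CPM. Slc11a1, which moves metal ions out of the phagosome, stood at 192 CPM against 6.10 CPM. Spic, a transcription factor of red pulp and other iron-recycling macrophages, stood at 201 CPM (166 to 240) against 2.44 CPM and had a UMI in 40 of 80 cells.

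Receptors and bridging proteins for the uptake of dying cells were higher in part. Of 14 apoptotic cell uptake genes with enough UMIs against CD11b-high cells, 6 were higher (Axl, Gas6, Itgb5, Lrp1, Mertk and Timd4), 1 was lower and the others stayed within the limit. Genes such as Gas6 and Mertk reached the minimum of UMIs through the C1q cells alone, and the lower gene through the CD11b-high cells alone, so these counts are no test. Gas6, the ligand that bridges phosphatidylserine to Axl and Mertk, had 59 UMIs in 25 C1q cells and 1 UMI in all CD11b-high cells. Axl stood at 199 CPM (165 to 238) against 14.03 CPM. The lower gene was Itgb3, the platelet integrin chain, at 0 UMIs in the C1q cells against 64 in CD11b-high cells, of which 7 cells held a UMI. Stab1 and Stab2, which also bind phosphatidylserine, stood at 84.5 and 66.3 CPM against 23.2 and 45.2 CPM, both within the limit.

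Of 11 scavenger receptor genes with enough UMIs, 6 were higher than in CD11b-high cells (Cd5l, Cd68, Colec12, Marco, Mrc1 and Msr1) and 0 lower. Msr1, scavenger receptor A, stood at 191 CPM (157 to 229) against 3.05 CPM, and Mrc1, the mannose receptor, at 136 CPM (108 to 169) against 25.6 CPM. Beyond C1q itself, the complement genes that were higher were Cfp, properdin, which stabilises the alternative pathway convertase, at 491 CPM (436 to 550) against 58.0 CPM, and C3ar1, the C3a receptor, at 87.8 CPM against 3.05 CPM. Fcna, ficolin A, a lectin that starts the complement lectin pathway, stood at 671 CPM (607 to 740) against 2.44 CPM, with a UMI in 64 of 80 cells. C3, the central complement component, had 1 UMI in the C1q cells and stood at 339 CPM in hepatocyte-marker cells.

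Lysosomal genes were higher in part. Of 27 with enough UMIs against CD11b-high cells, 10 were higher and 0 lower (median log2 difference 1.56), and the list summed to 17759 CPM against 4618 CPM. Ctsb, cathepsin B, was its most abundant member, at 3626 CPM (3475 to 3781) against 286 CPM, and was counted in all 80 cells. Lgmn, the asparagine protease legumain, had 0 to 58 UMIs per cell (median 9.5) and stood at 1873 CPM (1765 to 1985) against 45.2 CPM. Ctsd, cathepsin D, stood at 1614 CPM against 156 CPM. Ctsc, which activates granule proteases, stood at 1488 CPM against 600 CPM and remained within the limit.

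Lipid and cholesterol handling genes included 7 that were higher among 16 (Abca1, Apoe, Fabp4, Lipa, Lpl, Nr1h3 and Trem2) and 0 lower. Nr1h3, the sterol-sensing nuclear receptor LXR alpha, stood at 282 CPM (241 to 327) against 4.27 CPM, and Abca1, a cholesterol exporter, at 103 CPM against 7.93 CPM. Apoe, an apolipoprotein, stood at 3462 CPM in C1q cells, 643 CPM in CD11b-high cells and 6378 CPM in hepatocyte-marker cells. The level of Fabp4, a fatty acid binding protein, rested on 3 cells, 1 of which held 94 of its 142 UMIs.

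Of the 14 Kupffer cell genes listed, the genes of the resident macrophage of the adult liver, 11 had enough UMIs and 8 were higher than in CD11b-high cells (Cd5l, Cdh5, Folr2, Marco, Nr1h3, Slc40a1, Spic and Timd4). The 3 with too few UMIs were Clec4f, Vsig4 and C6. Clec4f, a lectin particular to mouse Kupffer cells, had 35 UMIs in 13 C1q cells and 1 in CD11b-high cells, Vsig4, a complement receptor, had 2 UMIs and C6 had 1. Clec1b, at 249 CPM against 95.2 CPM, was within the limit and is also made by platelets. Id3, at 444 CPM against 203 CPM, and Id1, at 99.4 CPM against 139 CPM, were within it too.

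**Figure D3:**
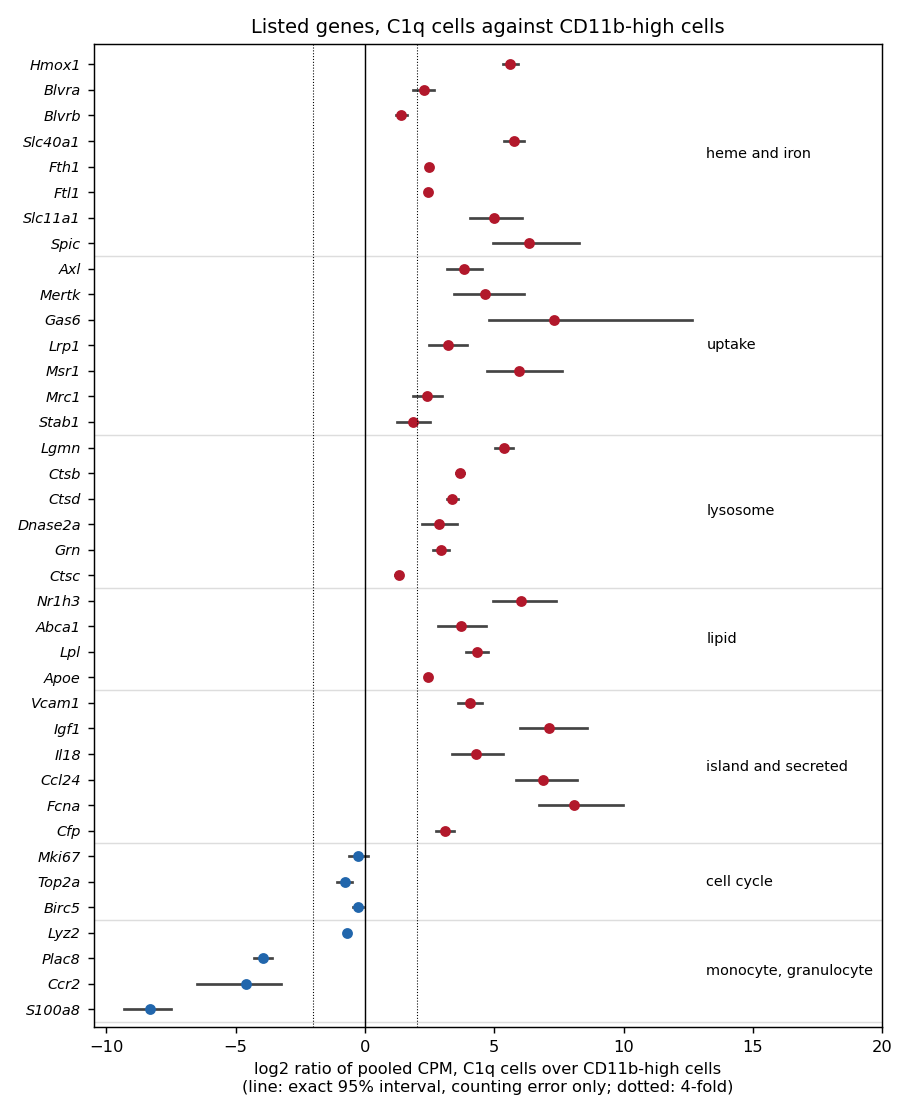
Ratio of pooled CPM in C1q cells (80) over CD11b-high cells (218) on a log2 scale for listed genes grouped by role, with exact 95% intervals for counting error and dotted lines at 4-fold. The heme and iron, uptake, lysosome, lipid and secreted genes drawn lie right of 0 (Itgb3, at 0 UMIs in the C1q cells, is not drawn), cell cycle genes lie near 0 and monocyte and granulocyte genes lie left of it, as with Slc40a1 at a ratio of 54.2 and Ccr2, with 4 UMIs against 266.

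Among 11 genes tied to the erythroblastic island with enough UMIs, 5 were higher than in CD11b-high cells (Adgre1, Dnase2a, Igf1, Il18 and Vcam1) and 0 lower. Vcam1, the adhesion molecule that holds erythroblasts through their integrin alpha 4 beta 1, had 0 to 25 UMIs per cell (median 2) and stood at 444 CPM (393 to 501) against 26.8 CPM. It was counted in 52 of 80 C1q cells and also in 122 of 173 hepatocyte-marker cells, at 134 CPM. Dnase2a, the lysosomal nuclease that degrades the DNA of engulfed nuclei, stood at 124 CPM (97.8 to 156) against 17.1 CPM. Maea, the erythroblast macrophage protein, stood at 84.5 CPM against 77.5 CPM and was within the limit. Klf1, the erythroid factor reported in some island macrophages, stood at 77.9 CPM in C1q cells, 80.5 CPM in CD11b-high cells and 481 CPM in the other kept cells.

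Secreted factors were few but some were abundant. Of 26 listed cytokines and growth factors, 6 had enough UMIs, and 3 were higher than in CD11b-high cells. These 3 reached the minimum of UMIs through the C1q cells alone, so the count is no test of the list. Igf1, insulin-like growth factor 1, had 0 to 15 UMIs per C1q cell (median 3), a UMI in 71 of 80 cells and 1 of 173 hepatocyte-marker cells, and a level of 514 CPM (458 to 574) against 3.66 CPM. Il18, an inflammasome cytokine, stood at 131 CPM against 6.71 CPM, beside its secreted inhibitor Il18bp at 249 CPM against 0.610 CPM. Il1a stood at 108 CPM (83.1 to 137) against 1.22 CPM. Il1b, Il6 and Il10 had 0 UMIs in the C1q cells and Tnf had 2.

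Of 9 chemokine and chemokine receptor genes with enough UMIs, 4 were higher (Ccl24, Ccl4, Ccl6 and Cx3cr1) and 1 was lower than in CD11b-high cells. Ccl24 and Cx3cr1 reached the minimum of UMIs through the C1q cells alone, and the lower gene through the CD11b-high cells alone, so these counts are no test of the list. Ccl24, eotaxin 2, stood at 504 CPM (449 to 564) against 4.27 CPM with a UMI in 56 cells, and Cx3cr1, the fractalkine receptor, at 161 CPM (130 to 196) against 9.76 CPM with a UMI in 36 cells. The level of Ccl4 rested on 5 cells, 1 of which held 45 of its 49 UMIs. The lower gene was Ccr2, the receptor by which monocytes leave the marrow, with 4 UMIs against 266 in CD11b-high cells.

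Antigen presentation by class II molecules was hardly represented. H2-Aa, H2-Ab1 and H2-Eb1 had 0 UMIs in the C1q cells and Cd74, the invariant chain, had 1. Of the 6 antigen presentation genes with enough UMIs, Cd86, a costimulatory ligand, was higher, at 321 CPM (278 to 370) against 14.03 CPM, and 0 were lower. B2m, the class I light chain, stood at 1405 CPM against 871 CPM, within the limit.

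Sensing receptors were higher in part. Of 21 pattern recognition genes in the matrix, 7 had enough UMIs, and 4 of these were higher than in CD11b-high cells (Clec4a1, Clec4a3, Clec4n and Tlr2). Clec4n, the lectin dectin 2, led them at 376 CPM (329 to 428) against 9.15 CPM. It reached the minimum of UMIs through the C1q cells alone, so this count is no test of the list. Of 6 Fc receptor genes 2 were higher, Fcgr1, the high-affinity IgG receptor, at 139 CPM (111 to 172) against 19.5 CPM, and Fcgrt, the neonatal Fc receptor, at 273 CPM against 34.8 CPM. Of 14 further signalling receptors 5 were higher (Cd300a, Csf1r, P2ry6, Sirpa and Trem2). Sirpa, the receptor for the CD47 signal that restrains phagocytosis, stood at 343 CPM (298 to 393) against 66.5 CPM.

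Transcription factors of macrophages were higher in part. Of 20 macrophage transcription factors with enough UMIs, 3 were higher than in CD11b-high cells (Maf, Nr1h3 and Spic), 0 were lower, and the median log2 difference was 0.35. Maf stood at 227 CPM (191 to 268) against 26.2 CPM. Spi1, the gene of PU.1, stood at 444 CPM (393 to 501) against 364 CPM, and Cebpb at 809 CPM against 661 CPM. Of 7 interferon response genes 0 were higher and 1, Ifitm1, was lower, at 18.2 CPM against 290 CPM.

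RNA of other cell types was measured by marker lists. The 20 monocyte and granulocyte markers summed to 321 CPM in the C1q cells against 26879 CPM in CD11b-high cells, 15 of the 17 with enough UMIs were lower, 5 were at 0, and Plac8 was the most abundant at 118 CPM. S100a8 had 11 UMIs in the C1q cells and 9642 in CD11b-high cells. The 12 hepatocyte markers summed to 974 CPM, against 4751 CPM in the other kept cells, with Trf the most abundant at 254 CPM. Afp stood at 219 CPM, and 1 cell held 56 of its 132 UMIs. Megakaryocyte markers summed to 603 CPM, against 561 CPM in the other kept cells, 1272 CPM in CD11b-high cells and 34.9 CPM in hepatocyte-marker cells. In the C1q cells Pf4, platelet factor 4, gave 580 CPM, while Ppbp and Itga2b had 2 UMIs each, and 6 of 7 with enough UMIs were lower than in CD11b-high cells. Endothelial markers summed to 572 CPM against 143 CPM in the other kept cells, 453 CPM in CD11b-high cells and 99.3 CPM in hepatocyte-marker cells, and 3 of 12 were higher and 0 lower than in the other kept cells. They were led by Cdh5, VE-cadherin, at 232 CPM (195 to 274) against 31.1 CPM and with a UMI in 49 cells, the 1 gene of 9 higher than in CD11b-high cells, while Pecam1 stood at 29.8 CPM.

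Stellate and mesenchymal markers summed to 104 CPM against 39.3 CPM in the other kept cells, 167 CPM in CD11b-high cells and 277 CPM in hepatocyte-marker cells, and all 24 UMIs of Dcn, their most abundant gene, came from 1 cell. Mast cell and basophil markers had 3 UMIs in all, with 8 of 10 genes at 0, and B and T cell markers had 27, of which Cd79b gave 23. Of the 7 globin genes with enough UMIs, 2 were lower than in CD11b-high cells, the embryonic genes Hbb-bh1 and Hbb-y. Of the 5 genes of antibody targets with enough UMIs, 2 were lower, Itga2b and Ly6c2. The part of RNA from other cell types in the differences given above was not tested.

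Cell cycle genes were present at somewhat lower levels than in CD11b-high cells and the other kept cells, with none past the limit. Of 20 proliferation genes, 0 were higher and 0 lower than in CD11b-high cells (median log2 difference -0.51), and Mki67 stood at 144 CPM (115 to 178) against 172 CPM and Top2a at 192 CPM (159 to 231) against 329 CPM. To remove differences in depth, each cell was thinned to 2000 UMIs. After thinning, 37.5% of C1q cells (26.9 to 49.0%) had UMIs of 3 or more of 9 mitosis genes, against 56.9% of CD11b-high cells, 53.2% of hepatocyte-marker cells and 61.8% of the other kept cells. The shares before thinning were 67.5%, 83.9%, 85.0% and 85.1%. Such UMIs do not by themselves show a dividing cell.

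The C1q cells were not uniform. After thinning, 614 genes had a mean of 0.5 UMIs or more over the 80 cells, and their median ratio of variance to mean was 1.19, where random sampling of identical cells gives about 1. The ratio exceeded 2 for 60 of them. It was highest for Hbb-bs, adult beta-globin, at 116, but at 1.63 without the 7 cells rich in globin. Outside the globin genes, Actb, an actin of the cytoskeleton, was at 43.2 with 1 to 174 UMIs per 2000, and Tmsb4x was at 14.3, whereas Actg1, the other cytoplasmic actin, was at 2.42. The heme and iron genes Ftl1 (12.6), Hmox1 (8.73) and Fth1 (7.98) also varied, with Hmox1 between 0 and 49 UMIs per 2000. Fabp4, at 25.6, rested on the 3 cells named above.

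The marker genes other than the C1q genes varied together. Marco, Cd5l and Timd4 UMIs were all present in 52 of the 80 cells and all absent in 8, and these 8 were about as deep as the 52, with medians of 6743 and 6955 UMIs. The 24 cells without a Marco UMI were set beside the 56 with one, a split made after these values were seen. Of 1948 genes with at least 50 UMIs in the 80 cells, 10 (0.513%) were lower in the cells without Marco, among them Marco itself, and 4 (0.205%) were higher. Cd5l stood at 125 CPM in the cells without Marco and 1526 CPM in those with it, with a UMI in 6 of 24 and 52 of 56 cells. Clec1b stood at 28.5 and 339 CPM, Folr2, a folate receptor, at 22.8 and 143 CPM, and Spic at 51.2 and 262 CPM. Vcam1 stood at 142 and 568 CPM, short of the limit. The C1q genes, which chose the cells, stood at 1190 and 1891 CPM for C1qa, 2158 and 2246 CPM for C1qb, and 2489 and 3223 CPM for C1qc.

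The genes that were higher in the cells without Marco were C3ar1, H19, Ccl9 and Cx3cr1. Cx3cr1 stood at 370 CPM with a UMI in 18 of the 24 cells, against 74.8 CPM and 18 of the 56 cells with Marco. C3ar1 stood at 222 CPM with a UMI in 13 of 24 cells, against 32.7 CPM in 10 of 56. H19, a fetal imprinted RNA, rested largely on 1 cell that held 28 of its 40 UMIs, and 1 cell held 18 of the 47 UMIs of the chemokine Ccl9. Without the cell richest in each gene, the log2 difference was 0.90 for H19 and 1.71 for Ccl9, under the limit of 4-fold, and 2.26 for C3ar1 and 2.07 for Cx3cr1. Pf4 stood at 1150 CPM and 346 CPM, short of the limit, and at 771 CPM without the cell richest in it. Macrophage genes were counted in both sets. Adgre1 stood at 262 CPM in the cells without Marco and 570 CPM with it, and Timd4 at 228 and 633 CPM. Lyz2 stood at 2335 CPM in the cells without Marco and 2524 CPM with it, Csf1r at 364 and 465 CPM, Hmox1 at 1828 and 3550 CPM, and Slc40a1 at 1583 and 2104 CPM. Antibody medians of the cells without and with Marco were 212.5 and 202 counts for CD11b, 105.5 and 69.5 for Ter119, 193 and 369.5 for CD71, and 957.5 and 1476 for CD44, and the 7 cells rich in globin were split 3 and 4.

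**Figure D4:**
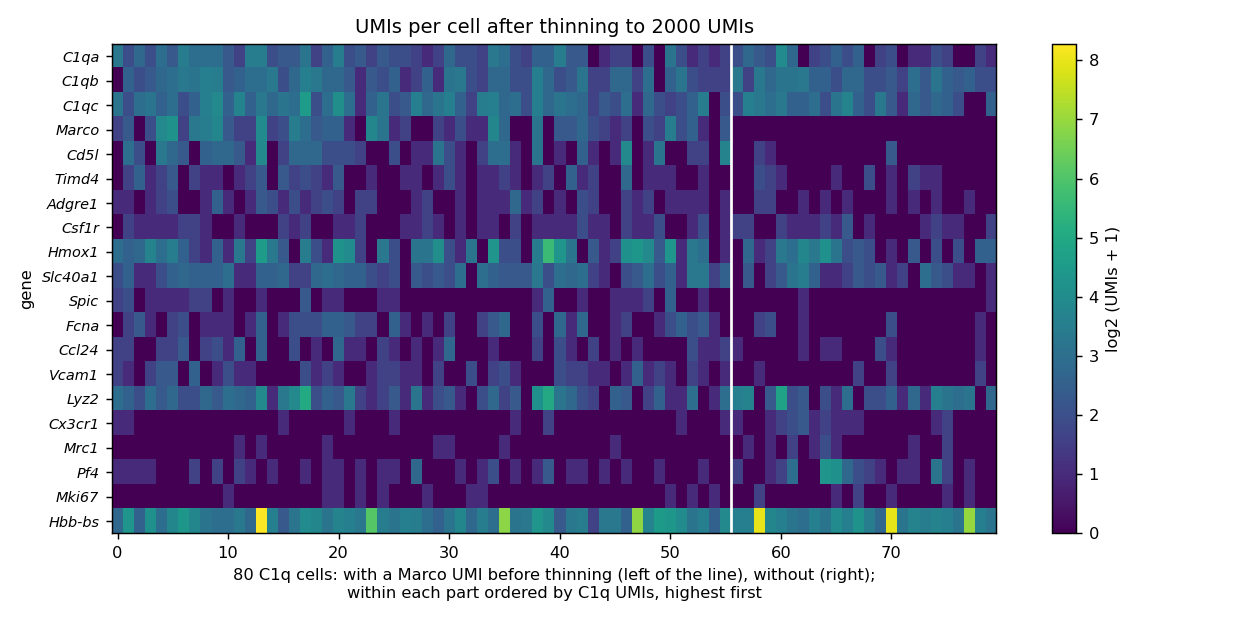
UMIs per cell after thinning to 2000 UMIs, as log2 of UMIs plus 1, for 20 genes (rows) in the 80 C1q cells (columns), with the 56 cells that had a Marco UMI before thinning left of the white line and the 24 without it right of it, each ordered by C1q UMIs. Cd5l, Fcna and Vcam1 thin out right of the line while Hmox1, Slc40a1 and Lyz2 go on across it, and Cx3cr1 is denser there (UMI in 18 of 24 cells before thinning). The bright columns of Hbb-bs are the cells rich in globin.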

How the data were processed

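CITE-seq libraries of pooled e13.5 fetal livers were analysed from the cell by gene counts that the authors deposited unfiltered (Cell Ranger, 10x 3′ v2 chemistry, build mm10). The antibody counts deposited beside them came from CITE-seq-Count, and 1.05% of those reads matched no antibody. Whether they were collapsed by molecular identifier is not given in the sources used here, so copies made by PCR may be included.

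The quality limits of the study were applied (300 to 5000 genes, mitochondrial share up to 9%), and doublets, called with Scrublet in scanpy 1.11.5 at an expected rate of 6%, were left in. UMIs were summed over the cells of a group and scaled to CPM, and ratios were given exact conditional intervals. Genes were called at 4-fold on CPM plus 10 with at least 50 UMIs. With 1 library per assay no test between samples was possible. The comparison code was tested on simulated data. The C1q cells, gene lists, comparison groups and rules were chosen with earlier results of these data known. Named genes were the 6 markers, the genes of 29 lists (417 of 422 names matched the matrix), the 20 highest and 10 lowest of each comparison, the 15 most abundant and the 15 most variable, and the genes of the Marco split were named after their values were seen. The results of 1 gene are not reported here. Promoter windows came from RefSeq (GRCm38.p6, which is mm10). Alternatives changed the C1q, mitochondrial, gene and UMI limits, doublets, pseudocount, fold, depth, comparison groups and antibody scale. Python 3.11.15, numpy 2.4.6, scipy 1.17.1 and pandas 2.3.3 were used.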

Additional observations from a re-analysis of the deposited data

How the results depend on the processing

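Log2 differences of a part of the named genes were recomputed under the alternative settings. Of 704 such values, 676 stayed within 1 log2 unit of the reported value, 28 moved farther and 0 changed sign. Hmox1 against CD11b-high cells moved from a log2 difference of 5.40 to 7.50 with a mitochondrial limit of 5% and to 7.37 with the highest 1% of CD11b counts. The number of C1q cells was 32 with a limit of 50 C1q UMIs and 36 with the mitochondrial limit of 5%. The share above the 95th percentile was 97.2% for CD11b with the latter limit, 100% for CD44 with 50 C1q UMIs, and 55.0% for CD11b, 0% for Ter119 and 0% for CD71 as shares of a cell's antibody counts.

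Against the other kept cells, genes called higher numbered 889 with a pseudocount of 1 CPM and 1222 at 2-fold, and genes called lower 177 with 50 C1q UMIs, 143 in the C1q cells with globin at or below their median, 603 with the pseudocount of 1, 641 at 2-fold and 175 with all cells thinned. Against CD11b-high cells, higher genes numbered 367 at 2-fold and 61 thinned, and lower genes 206 with 50 C1q UMIs, 187 with the pseudocount of 1, 387 at 2-fold and 63 thinned. Against hepatocyte-marker cells, higher genes numbered 172 with the mitochondrial limit of 5%, 792 at 2-fold, 490 with a minimum of 10 UMIs and 104 thinned, and lower genes 68, 583 with the pseudocount of 1, 810, 181 thinned and 209 with a hepatocyte limit of 10%, the first under the mitochondrial limit and the third at 2-fold. Thinning leaves fewer genes with 50 UMIs; otherwise the cause was not tested.

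The pooled globin share was 2.27% with a limit of 10 C1q UMIs, 2.04% without doublets, 3.53% with the mitochondrial limit of 5%, 2.25% as a mean over cells, 0.836% in cells at or below the median globin share, 0.968% without cells over 5% globin and 2.17% with no mitochondrial limit. The median share was 0.863% in those cells. The last 2 settings of the pooled share and the antibody shares were chosen after seeing the data. Both libraries hold the same cells, and the correlations between antibody counts and RNA used this pairing cell by cell. No groups of samples were compared, so no paired test between samples was possible.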
